A study of Mus musculus with 6 samples.

Results

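The cholesterol and fatty acid synthesis genes were examined in E0771 cells, a mouse mammary carcinoma line, after exposure to activated CD8 T cells. The set holds 29 genes, taken as the rows of the deposited count table whose symbol belongs to the mevalonate and sterol pathway, to its control by the SREBP factors or to fatty acid synthesis, out of 28063 genes in the table. They were divided by role into 18 enzymes of sterol synthesis (the sterol arm), 6 genes of SREBP control and sterol transport, and 5 enzymes of fatty acid synthesis (the fatty acid arm). All 29 passed the low-count filter, as did 14675 genes in all.

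The cells carried a form of Malt1 that the labels call the PD mutant without spelling out the abbreviation (Malt1_PD), wild-type Malt1 (Malt1_WT) or a control vector (Vector), with 2 libraries each. Before lysis, every population spent 12 hours with activated CD8 T cells (effector-to-target ratio 3), was detached with trypsin and reseeded, and recovered for 6 hours. No group without T cells was analysed here, so the comparisons show differences between the 3 populations after T cell contact and not the response to it. The labels state neither the promoter of the constructs nor whether a population is 1 clone, and whether replicate libraries were made from independent cultures is not stated either, so each p-value reflects library-to-library spread that could be technical.

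Cells make cholesterol from acetyl-CoA through mevalonate, isoprenoid units, squalene and lanosterol, and they make fatty acids by carboxylation of acetyl-CoA, chain elongation by fatty acid synthase and desaturation. Both routes are under the control of the sterol regulatory element-binding proteins (SREBPs), membrane-bound transcription factors that SCAP escorts to the Golgi for cleavage when sterols are low and that the INSIG proteins hold back in the endoplasmic reticulum when sterols are high. SREBP2 is known chiefly for sterol genes and SREBP1 for fatty acid genes, and tumour cells often run both routes at a high rate.

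Total counts lay between 14045390 and 19962014 per library. Malt1 stood at 106 and 95.7 CPM (counts scaled to library size) in Malt1_PD, 67.2 and 82.1 in Malt1_WT, and 23.8 and 31.3 in Vector, so that both Malt1 forms stood above Vector. Cd274, which encodes the checkpoint ligand PD-L1, stood at 4.87 and 3.57 CPM in Malt1_PD, 469 and 545 in Malt1_WT, and 4.22 and 4.37 in Vector. The labels do not say whether the Malt1_WT cells carry a Cd274 construct, and in each comparison with Malt1_WT the Malt1 form and the Cd274 level cannot be told apart. Of 5 epithelial markers, Krt8 had 108 to 124 CPM and Epcam 6.16 to 8.97, while Krt18, Krt19 and Cdh1 were near absent, at 2 to 12 counts a library. Of the mesenchymal markers, Vim had 3776 to 4645 CPM and Fn1 only 1 to 3 counts. T cell markers came to 5 and 9 counts in Malt1_PD, 3 and 16 in Malt1_WT, and 10 and 6 in Vector over the 7 of 10 markers with a row. Markers of adipocytes, cells rich in the fatty acid enzymes, came to 0 and 1 counts in Malt1_PD, 3 and 3 in Malt1_WT, and 5 and 3 in Vector over the 3 of 4 with a row. Myeloid markers summed to 8.29 and 7.31 CPM in Malt1_PD, 7.90 and 9.22 in Malt1_WT, and 11.03 and 9.08 in Vector, nearly all from Cd68 and Lyz2, with Adgre1 at 0 to 2 counts; their part in the results was not tested. In bulk RNA, fewer cells of a type and less RNA per cell cannot be told apart.

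Sequence at the promoters was read from RefSeq, which held a window from 250 bases before to 50 bases after the start for 23 of the 29 genes (build GRCm38.p6). Some genes had several windows, 31 in all, and a gene was counted if any of its windows matched. For 17 of the 31 windows, the first 30 bases after the start lay in the gene's principal transcript. These windows are shown because SREBP is known to bind sterol regulatory elements beside sites for the factors NF-Y and Sp1. A sterol regulatory element of the form TCACNCCA, searched on both strands, lay in the windows of 3 of the 23 genes, Hmgcs1, Msmo1 and Srebf2, against 4.97% of 27025 genes with a full window. The NF-Y box CCAAT lay in 19 of the 23, against 41.1% of all genes, and the Sp1 box GGGCGG in 19 of the 23, against 38.2%. By role, CCAAT was found in 14 of 15 genes of the sterol arm, 4 of 5 control genes and 1 of 3 fatty acid genes, and GGGCGG in 14 of 15, 5 of 5 and 0 of 3. The Acaca window (chr11:84195188-84195487) lay inside the gene, whose annotated start is at 84129672. The fatty acid counts thus include a window away from that start, and with 3 genes they do not serve to compare the arms. The 250 bases before the start of those 3 genes, of Insig1 and of Fasn are printed 5′ to 3′ on the strand of the gene, with matches to TCACNCCA and CCAAT on either strand in capitals (CCAAT on the other strand reads ATTGG).
Hmgcs1 (chr13:119690101-119690350, plus strand): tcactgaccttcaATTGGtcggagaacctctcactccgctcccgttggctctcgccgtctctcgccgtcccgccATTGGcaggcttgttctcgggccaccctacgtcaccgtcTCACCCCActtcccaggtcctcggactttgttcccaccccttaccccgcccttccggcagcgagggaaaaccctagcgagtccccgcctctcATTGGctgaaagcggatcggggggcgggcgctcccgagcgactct
Msmo1 (chr8:64733579-64733828, minus strand): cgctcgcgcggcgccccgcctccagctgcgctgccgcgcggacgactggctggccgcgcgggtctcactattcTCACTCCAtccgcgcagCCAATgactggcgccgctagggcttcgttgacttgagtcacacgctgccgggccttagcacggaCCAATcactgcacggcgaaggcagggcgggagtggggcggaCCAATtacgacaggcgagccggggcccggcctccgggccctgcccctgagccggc
Srebf2 (chr15:82147019-82147268, plus strand): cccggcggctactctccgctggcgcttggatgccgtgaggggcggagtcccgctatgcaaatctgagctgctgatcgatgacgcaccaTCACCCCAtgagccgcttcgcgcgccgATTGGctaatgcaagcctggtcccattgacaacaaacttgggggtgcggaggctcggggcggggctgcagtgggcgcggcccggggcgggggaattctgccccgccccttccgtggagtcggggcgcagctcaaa
Insig1 (chr5:28071162-28071411, plus strand): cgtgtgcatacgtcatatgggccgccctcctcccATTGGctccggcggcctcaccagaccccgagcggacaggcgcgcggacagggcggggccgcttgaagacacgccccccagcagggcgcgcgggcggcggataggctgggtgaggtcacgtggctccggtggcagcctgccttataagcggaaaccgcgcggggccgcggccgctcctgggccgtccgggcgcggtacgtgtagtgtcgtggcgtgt
Fasn (chr11:120824548-120824797, minus strand): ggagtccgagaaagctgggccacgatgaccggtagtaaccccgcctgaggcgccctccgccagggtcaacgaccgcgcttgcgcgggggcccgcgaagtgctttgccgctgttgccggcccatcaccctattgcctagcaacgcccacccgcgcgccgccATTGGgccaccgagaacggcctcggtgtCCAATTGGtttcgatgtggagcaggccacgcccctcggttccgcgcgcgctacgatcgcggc
The Hmgcs1 window held 1 sterol element and 3 CCAAT boxes before the start and a further CCAAT box after it, and the Msmo1 window held 1 sterol element and 3 CCAAT boxes. The Fasn window, with 3 CCAAT boxes of which a pair overlaps, held no match to TCACNCCA; a match is a description of these letters and not of binding.

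Levels of the 29 genes were compared per length, as CPM per kilobase of the gene length in the deposited table (RPKM), averaged over the 6 libraries. The highest level was that of Scd2, a stearoyl-CoA desaturase that makes monounsaturated fatty acids, at 279 RPKM, above 99.1% of the genes tested. Srebf2, which encodes SREBP2, followed with 60.9 RPKM, Fasn, the fatty acid synthase, with 60.4, Scd1, the second desaturase, with 53.3, and Srebf1, which encodes SREBP1, with 45.8. The ranges over libraries of Srebf2, Fasn and Scd1 overlapped, so their order is not resolved, whereas Scd2 lay above all of them in every library. On this length the fatty acid arm held 3 of the 4 highest levels, with Elovl6, which elongates palmitate, at 16.4 RPKM and Acaca, the acetyl-CoA carboxylase that makes malonyl-CoA, at 9.07 RPKM below them.

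**Figure D1:**
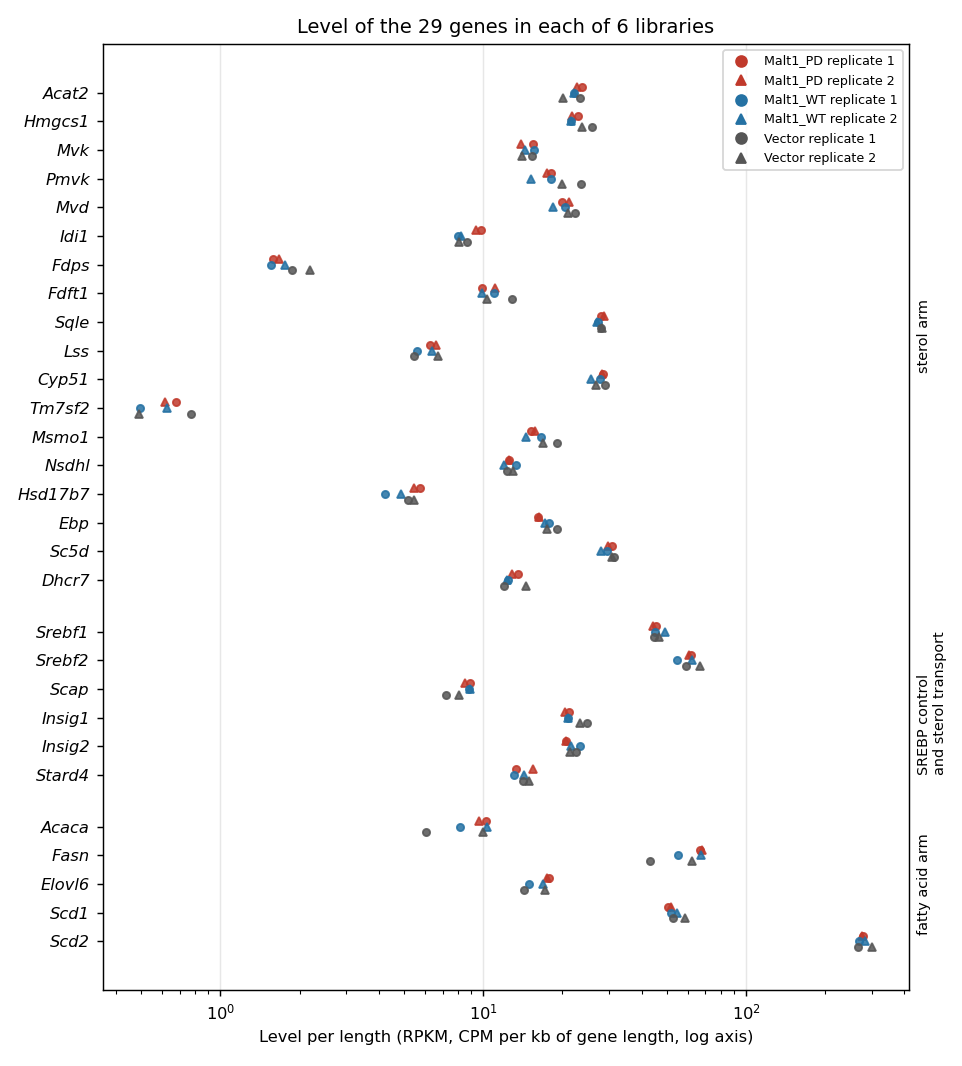
Level per length of the 29 genes (RPKM, log axis) in the 6 libraries, grouped by role from top to bottom; each mark is 1 library, coloured by population. Scd2 lies to the right of every other gene, Tm7sf2 to the left, and the marks of most genes lie close together.

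Within the sterol arm the levels spanned from 30.2 RPKM for Sc5d, the lathosterol oxidase near the end of the pathway, to 0.614 RPKM for Tm7sf2, one of the sterol C14 reductases. Sqle, the squalene epoxidase, stood at 28.0 RPKM and Cyp51, the lanosterol demethylase, at 27.7, and neither was separated from Sc5d by its range over libraries. The genes of the first steps followed: Hmgcs1, the HMG-CoA synthase, at 22.9 RPKM, Acat2, the cytosolic thiolase, at 22.4, Mvd, the mevalonate diphosphate decarboxylase, at 20.6, and the mevalonate kinases Pmvk, acting on phosphomevalonate, at 18.8 and Mvk at 14.8. Ebp, the sterol isomerase, had 17.3 RPKM, Msmo1, the methylsterol monooxygenase, 16.3, Dhcr7, the last reductase before cholesterol, 12.9, and Nsdhl, a sterol dehydrogenase of demethylation, 12.6. Lower levels were those of Fdft1, the squalene synthase, at 10.8 RPKM, Idi1, the isopentenyl diphosphate isomerase, at 8.70, Lss, the lanosterol synthase, at 6.17, Hsd17b7, a sterol ketoreductase, at 5.15, and Fdps, the farnesyl diphosphate synthase, at 1.77.

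Among the control genes, Insig1 and Insig2 stood at 22.0 and 21.7 RPKM with overlapping ranges, Stard4, a carrier of cholesterol between membranes, at 14.2 RPKM, and Scap at 8.42 RPKM. The length in the table equalled the exons of all transcripts joined for most of these genes, which lowers the RPKM of genes with many transcripts. On the length of the principal transcript, the order of the top stayed with Scd2, then Srebf2 and then Fasn, but Srebf1 came to place 4, Sqle to place 5 with 56.2 RPKM and Msmo1 to place 7 with 49.0, with Scd1 at place 6 with 53.3. Sqle, Msmo1 and Cyp51, the last at 31.1 RPKM, then stood above Sc5d at 30.6, and Tm7sf2 stayed last with 2.33 RPKM. The level of Fdps is uncertain, because 5 transcripts of other genes matched its own over at least 300 bases at 95% identity or more. One of them, the processed pseudogene Gm3571, is 98.9% identical over 76.8% of the Fdps transcript and had 6.84 CPM on average over the 6 libraries, beside 7.46 for Fdps itself. In all, 8 genes of the set had such a match. Acaca matched the pseudogene Gm5182 at 99.2% over 64.3% of its transcript, and Acat2 matched Acat3 at 97.7% over 65.6%. Idi1 matched the pseudogene Gm13502 at 100% over 22.6%. These copies had 1.95, 1.13 and 0.709 CPM. Acat2 also matched Tcp1 at 98.7% over 19.8% of its transcript, and Tcp1 had 614 CPM, beside 56.9 for Acat2. The effect of these matches on the levels was not tested. Fdft1 shares 774 bases with Ctsb on the opposite strand, a gene of 687 CPM, and Tm7sf2 shares 532 bases with Vps51 on the same strand. Fdps shares 1124 bases, 26.7% of its exon bases, with Gm43738 on the same strand, a gene of 0.0176 CPM. The strand setting of the counting is not given in the sources used here.

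Levels varied over the 6 libraries about as much as those of other genes. The ratio of the highest to the lowest library had a median of 1.21 over the sterol arm, 1.20 over the control genes and 1.25 over the fatty acid arm, beside 1.25 over the 9573 genes with a mean log2 CPM of at least 3. It was under 1.3 for 13 of 18 sterol genes, 6 of 6 control genes and 3 of 5 fatty acid genes, and the share over all genes was not counted. Sqle varied least, by a ratio of 1.06, and Acaca most, by 1.70, ahead of Tm7sf2 with 1.58, Fasn with 1.57 and Pmvk with 1.56.

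Malt1_PD and Vector were compared first, with edgeR's quasi-likelihood test and Benjamini-Hochberg adjustment over all genes tested. None of the 29 genes passed an adjusted p of 0.05 (lowest 0.556), where 0.00681% of all genes did, which was Malt1 alone. At an unadjusted p under 0.05, 0 of the 29 were higher, beside 3.73% of all genes, and 1 was lower, beside 4.88%. DESeq2 also called none of the 29. The 95% interval of the fold change lay within 1.5-fold in either direction for 25 of the 29 genes, and the widest bounds over all 29 were 0.608 and 1.74.

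The gene with the smallest unadjusted p in that comparison was Insig1, the sterol-sensing retention factor and itself a known SREBP target (chr5:28071363-28078662, plus strand, GRCm38). Insig1 had 65.5 and 63.5 CPM in Malt1_PD, 65.2 and 64.9 in Malt1_WT, and 76.7 and 72.2 in Vector. Both Malt1 populations lay below both Vector libraries without overlap, and the Malt1 populations overlapped each other. Here and below, the share of all genes whose libraries separate in this way was not counted. Non-overlap of so few libraries therefore describes the values and does not show a difference. The log2 fold change of Malt1_PD over Vector was -0.21 ± 0.08 (SE; edgeR adjusted p = 0.556).

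Pmvk (chr3:89454541-89469013, plus strand) had 31.1 and 30.1 CPM in Malt1_PD, 31.1 and 26.0 in Malt1_WT, and 40.5 and 34.2 in Vector. Every Malt1 library again lay below both Vector libraries, with a log2 fold change of -0.29 ± 0.13 for Malt1_PD over Vector (edgeR adjusted p = 0.581). Fasn (chr11:120805846-120824547, minus strand) had 729 and 743 CPM in Malt1_PD, 603 and 739 in Malt1_WT, and 472 and 680.3 in Vector. The Malt1_PD libraries were the closest pair and lay above both Vector libraries, while Malt1_WT overlapped Vector and Vector replicate 1 was the lowest of the 6.

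The log2 fold change of Fasn in Malt1_PD over Vector was 0.35 ± 0.17 (edgeR adjusted p = 0.605). It depended on which Vector library was kept: without Vector replicate 2 it was 0.65, and without Vector replicate 1 it was 0.11. Acaca had 175 and 164 CPM in Malt1_PD, 139 and 176 in Malt1_WT, and 103 and 171 in Vector, with Vector replicate 1 the lowest library and overlap between all populations. It showed the same dependence, with a log2 fold change of 0.31 ± 0.21 from all libraries, 0.72 without Vector replicate 2 and -0.01 without Vector replicate 1. Without a low-count filter, Fasn was called (0.36, edgeR adjusted p = 0.00695), among 188 genes called in that setting.

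Idi1 had 34.5 and 33.0 CPM in Malt1_PD, 28.0 and 28.7 in Malt1_WT, and 30.3 and 28.3 in Vector. Malt1_PD lay above all the other libraries, whereas Malt1_WT and Vector overlapped. The log2 fold change of Malt1_PD over Vector was 0.20 ± 0.10 (edgeR adjusted p = 0.612).

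**Figure D2:**
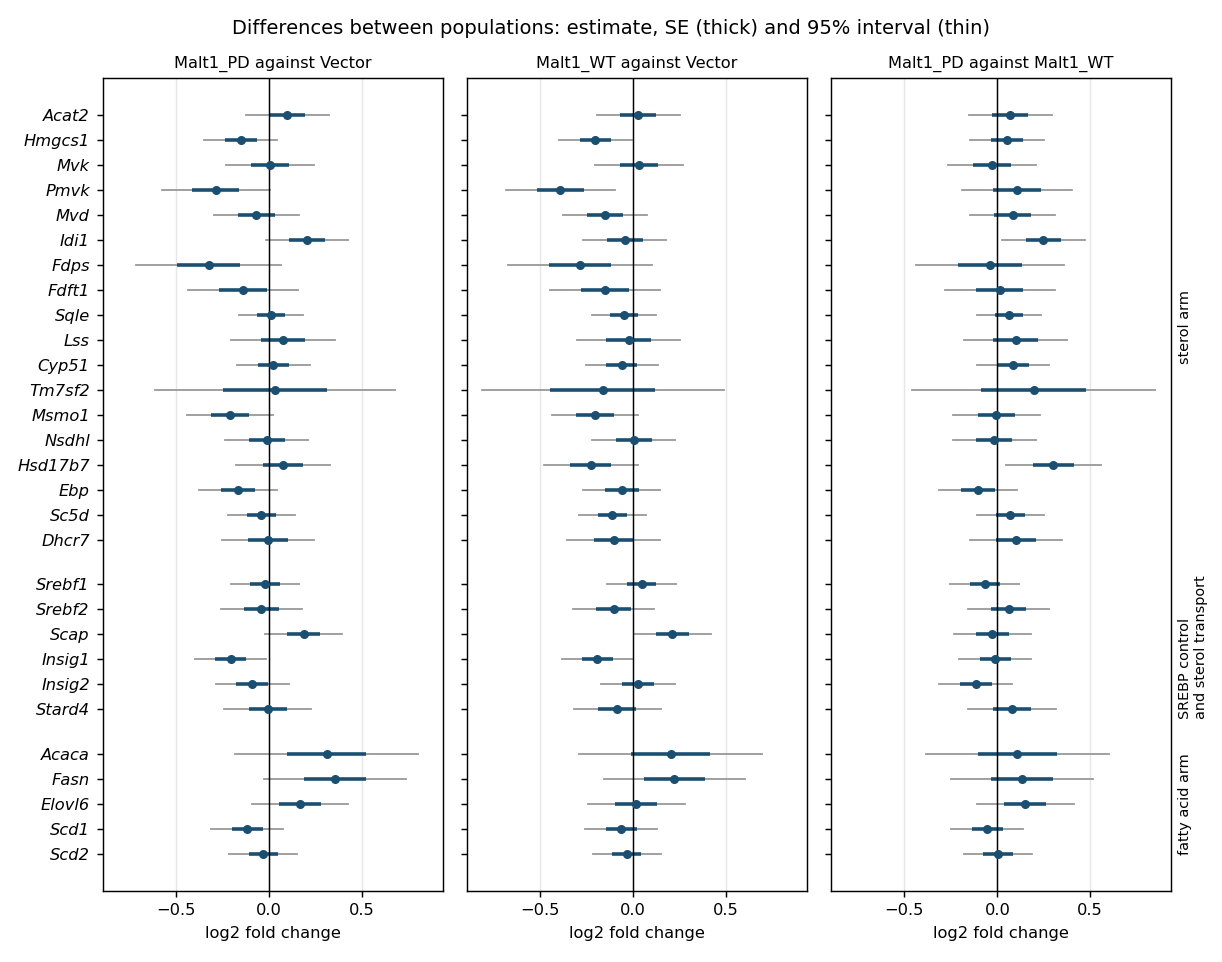
Log2 fold change of each of the 29 genes in Malt1_PD against Vector, Malt1_WT against Vector and Malt1_PD against Malt1_WT; points are estimates, thick bars the SE and thin lines the 95% interval. Nearly all intervals cross 0, and the widest belong to Tm7sf2 and Acaca.

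In Malt1_WT against Vector, again none of the 29 genes passed an adjusted p of 0.05 (lowest 0.574), where 0.00681% of all genes did, which was Cd274 alone. At an unadjusted p under 0.05, 1 gene was higher, Scap, beside 3.30% of all genes, and 3 were lower, Pmvk, Hmgcs1 and Insig1, beside 3.80%. DESeq2 called none of the 29, and the interval of the fold change lay within 1.5-fold for 24 of them, with widest bounds of 0.569 and 1.62. This comparison and the one before it share the Vector libraries.

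Pmvk differed by -0.39 ± 0.13 on the log2 scale in Malt1_WT over Vector (edgeR adjusted p = 0.574). Without Vector replicate 2 its value was -0.51. With 1 library left out it ran from -0.52 without Malt1_WT replicate 1 to -0.26 without Malt1_WT replicate 2. Hmgcs1 (chr13:119690379-119708260, plus strand), whose promoter window is printed above, had 105 and 99.7 CPM in Malt1_PD, 98.9 and 98.7 in Malt1_WT, and 119 and 109 in Vector. All 4 Malt1 libraries lay below both Vector libraries, and the log2 fold change of Malt1_WT was -0.20 ± 0.09 (edgeR adjusted p = 0.680).

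Scap had 66.2 and 63.6 CPM in Malt1_PD, 65.7 and 66.5 in Malt1_WT, and 53.9 and 60.3 in Vector. The 4 Malt1 libraries lay above both Vector libraries, with a log2 fold change of 0.21 ± 0.09 for Malt1_WT over Vector (edgeR adjusted p = 0.700). Insig1 differed by -0.19 ± 0.08 in Malt1_WT over Vector (edgeR adjusted p = 0.693). Fasn and Acaca stood at 0.22 ± 0.17 and 0.20 ± 0.21, and without Vector replicate 2 at 0.51 and 0.61. Without Vector replicate 1 they stood at -0.02 and -0.12.

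Malt1_PD against Malt1_WT sets the mutant beside the wild-type form, in cells that also differ in Cd274 by -6.91 ± 0.16 on the log2 scale. None of the 29 genes passed an adjusted p of 0.05 (lowest 1.00), where 0.00681% of all genes did, which was Cd274, lower in Malt1_PD. At an unadjusted p under 0.05, 2 were higher, Hsd17b7 and Idi1, beside 1.08% of all genes, and 0 were lower, beside 0.838%. DESeq2 called none of the 29. The interval of the fold change lay within 1.5-fold for 27 of the 29, with widest bounds of 0.727 and 1.80, those of Tm7sf2.

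Hsd17b7 had 29.2 and 27.9 CPM in Malt1_PD, 21.5 and 24.7 in Malt1_WT, and 26.4 and 27.9 in Vector. Malt1_WT was the lowest population without overlap with the others, and Malt1_PD lay just above both Vector libraries. The log2 fold change of Malt1_PD over Malt1_WT was 0.30 ± 0.11 (edgeR adjusted p = 1.00), and that of Idi1 was 0.25 ± 0.10 (edgeR adjusted p = 1.00).

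With both Malt1 forms pooled against Vector, none of the 29 passed an adjusted p of 0.05 (lowest 0.376, Pmvk), where 0.0273% of all genes did, namely Cd274 and Malt1, higher, and Mmp3 and Ptgs1, lower. The pooled Cd274 difference comes from Malt1_WT, at 6.88 ± 0.16 over Vector, against -0.03 ± 0.18 for Malt1_PD. At an unadjusted p under 0.05, Scap was higher, beside 4.45% of all genes, and 4 were lower, Pmvk, Insig1, Hmgcs1 and Msmo1, beside 5.40%. DESeq2 called none of the 29, and 24 had an interval within 1.5-fold, with widest bounds of 0.642 and 1.61. The log2 fold changes were -0.34 ± 0.11 for Pmvk, -0.20 ± 0.07 for Insig1, -0.18 ± 0.07 for Hmgcs1, -0.21 ± 0.09 for Msmo1 and 0.20 ± 0.08 for Scap (edgeR adjusted p between 0.376 and 0.485).

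Msmo1 (chr8:64718139-64733792, minus strand) had 93.6 and 96.9 CPM in Malt1_PD, 102 and 89.5 in Malt1_WT, and 117 and 104 in Vector, the 4 Malt1 libraries below both Vector libraries. Without Vector replicate 2, the log2 fold changes in this pooled comparison were -0.45 for Pmvk, 0.58 for Fasn and 0.67 for Acaca. From all libraries the pooled values were 0.29 ± 0.14 for Fasn and 0.25 ± 0.19 for Acaca. Without Vector replicate 1 the same differences were -0.21 for Pmvk, 0.05 for Fasn and -0.06 for Acaca. Without a low-count filter Fasn was called here too (0.29, edgeR adjusted p = 0.0137), among 255 genes called in that setting.

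The factors themselves differed by less. Srebf1 had 256 and 250.3 CPM in Malt1_PD, 254 and 276 in Malt1_WT, and 251 and 263 in Vector, so that all 3 populations overlapped. Srebf2 had 443 and 435 CPM in Malt1_PD, 393 and 448 in Malt1_WT, and 426 and 479 in Vector, also with overlap throughout. Their log2 fold changes in Malt1_PD over Vector were -0.02 ± 0.08 and -0.04 ± 0.09, with 95% intervals of the fold from 0.866 to 1.12 for Srebf1 and from 0.835 to 1.13 for Srebf2. In Malt1_WT over Vector they were 0.04 ± 0.08 and -0.10 ± 0.09.

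Insig2, the second INSIG protein, had 71.5 and 71.8 CPM in Malt1_PD, 80.7 and 74.8 in Malt1_WT, and 78.5 and 74.1 in Vector. Malt1_PD lay below the other libraries, which overlapped each other, and its log2 fold change over Vector was -0.09 ± 0.09. Stard4 overlapped between all populations, with means of 80.6 ± 8.5 CPM in Malt1_PD, 76.4 ± 5.0 in Malt1_WT and 81.1 ± 3.1 in Vector (SD, n = 2 each).

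The desaturases also stayed close. Scd2 had 1518 and 1509 CPM in Malt1_PD, 1472 and 1546 in Malt1_WT, and 1448 and 1646 in Vector, and the Vector libraries spanned the others. Scd1 had 245 and 250.7 CPM in Malt1_PD, 250.8 and 263 in Malt1_WT, and 254 and 283 in Vector, with Malt1_PD below Vector and Malt1_WT overlapping Vector. Their log2 fold changes in Malt1_PD over Vector were -0.03 ± 0.08 for Scd2 and -0.12 ± 0.08 for Scd1. Scd1 and Scd2 transcripts are 95.5% identical over 623 bases, so reads there could be exchanged between the genes.

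Elovl6 had 114 and 113 CPM in Malt1_PD, 95.7 and 109 in Malt1_WT, and 91.5 and 111 in Vector. Its Malt1_PD libraries lay just above the others, at log2 fold changes of 0.17 ± 0.11 over Vector and 0.15 ± 0.11 over Malt1_WT. Sc5d, the sterol gene of highest mean RPKM on the table's length, had 150.1 and 145 CPM in Malt1_PD, 144 and 137 in Malt1_WT, and 153 and 151 in Vector. Both Malt1 populations lay below Vector, at log2 fold changes of -0.04 ± 0.08 for Malt1_PD and -0.11 ± 0.08 for Malt1_WT.

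The remaining sterol genes had log2 fold changes in Malt1_PD over Vector between -0.33 for Fdps and 0.10 for Acat2. Fdps averaged 6.83 ± 0.26 CPM in Malt1_PD, 6.99 ± 0.62 in Malt1_WT and 8.56 ± 0.96 in Vector, the Malt1 libraries below Vector (edgeR adjusted p = 0.642 and 0.784 for Malt1_PD and Malt1_WT over Vector). Ebp stood at -0.17 ± 0.09 and Fdft1 at -0.14 ± 0.13 in Malt1_PD over Vector, while Mvk, Sqle, Cyp51, Nsdhl, Dhcr7 and Tm7sf2 lay between -0.01 and 0.03, Lss at 0.07 ± 0.12 and Mvd at -0.07 ± 0.10. For Tm7sf2, with 39 counts in its lowest library, the interval of the fold in Malt1_WT over Vector ran from 0.569 to 1.40, so a difference of any size in that range remains possible.

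The sterol and fatty acid arms were then set side by side. In Malt1_PD over Vector the median log2 fold change was -0.01 over the sterol arm, -0.03 over the control genes and 0.17 over the fatty acid arm, beside -0.00 over all genes tested. In Malt1_WT over Vector it was -0.11, -0.03 and 0.02, and in Malt1_PD over Malt1_WT it was 0.07, -0.02 and 0.11, with the same value for all genes. Of the 18 sterol genes, 10 lay below 0 in Malt1_PD over Vector, 15 in Malt1_WT over Vector and 5 in Malt1_PD over Malt1_WT, beside 50.3%, 50.3% and 50.5% of all genes tested. None of these sterol genes passed the test. The fatty acid median in Malt1_PD over Vector was -0.01 without Vector replicate 1 and 0.32 without Vector replicate 2. In Malt1_PD over Malt1_WT it was -0.03 without Malt1_WT replicate 1 and 0.25 without Malt1_WT replicate 2.

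**Figure D3:**
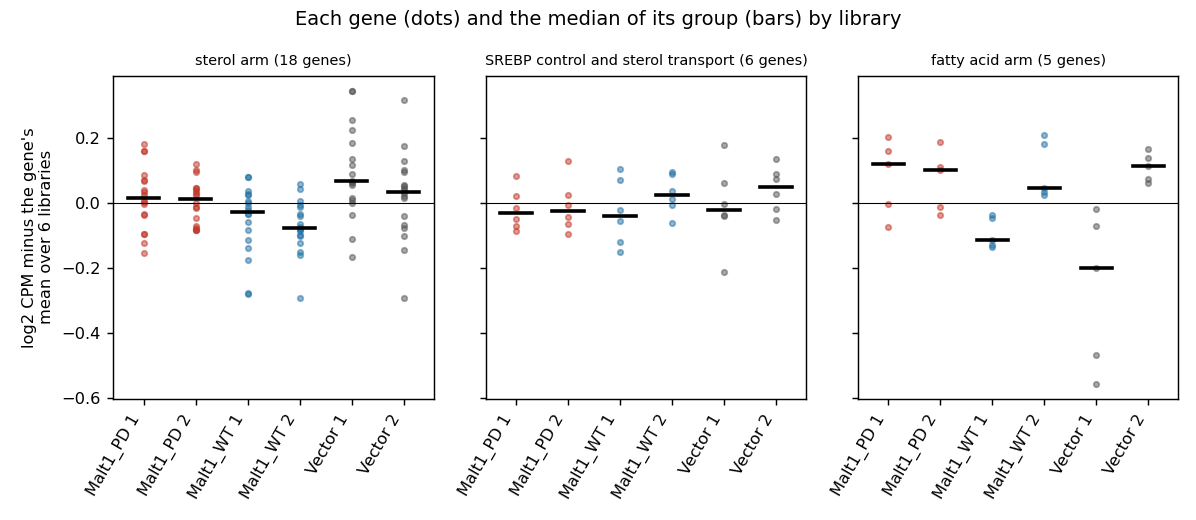
Deviation of each gene (dots) from its own mean over the 6 libraries, on the log2 CPM scale, by library and role, with the median of each group as a bar. Sterol medians stay within 0.08 of 0, while the fatty acid medians of Vector replicate 1 and Malt1_WT replicate 1 lie at -0.20 and -0.11 beside 0.05 to 0.12 in the other libraries.

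By library, the median deviation of the fatty acid arm from the genes' means was 0.12 and 0.10 in Malt1_PD, -0.11 and 0.05 in Malt1_WT, and -0.20 and 0.11 in Vector. The replicates of Malt1_WT and of Vector lay further apart than those of Malt1_PD. The sterol arm gave 0.01 and 0.01 in Malt1_PD, -0.03 and -0.08 in Malt1_WT, and 0.07 and 0.03 in Vector, so its replicates lay closer together. Malt1_WT was the lowest population in the sterol arm.

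In summed CPM, the sterol arm came to 1135 and 1130.0 in Malt1_PD, 1103 and 1066 in Malt1_WT, and 1187 and 1148 in Vector, and the fatty acid arm to 2781 and 2779 in Malt1_PD, 2561 and 2833 in Malt1_WT, and 2369 and 2892 in Vector. The ratio of the sterol to the fatty acid sum was 0.408 and 0.407 in Malt1_PD, 0.431 and 0.376 in Malt1_WT, and 0.501 and 0.397 in Vector. Malt1_PD lay inside the range of the other populations, and Vector replicate 1 stood above the other 5 libraries. The sterol median minus the fatty acid median, taken from the deviations within each library and then averaged by population, was -0.19 in Malt1_PD over Vector, -0.11 in Malt1_WT over Vector and -0.08 in Malt1_PD over Malt1_WT, on the log2 scale. Without Vector replicate 1 the first of these was -0.02 and the second 0.06, and without Vector replicate 2 they were -0.36 and -0.29, so the direction for Malt1_WT rests on Vector replicate 1. The third was 0.03 without Malt1_WT replicate 1, 0.02 from the summed CPM and -0.03 with the length trend removed, so its direction was not stable. By library, the sterol minus fatty acid value with that trend removed was -0.11 and -0.05 in Malt1_PD and -0.0006 and -0.10 in Malt1_WT. In Vector it was 0.19 and -0.002, so Vector replicate 1 was still the highest.

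The fatty acid values were also set against gene length. Fasn (10947 bases) and Acaca (17074 bases) are among the longest 10% of the genes with a mean log2 CPM of at least 3, as is Lss (10787 bases) in the sterol arm, while the median length was 6431 bases over the fatty acid arm and 4321 over the sterol arm. The longest 10%, 958 genes, had a median deviation of 0.04 and 0.04 in Malt1_PD, -0.08 and 0.09 in Malt1_WT, and -0.21 and 0.14 in Vector. Across genes, whose values are not independent of each other, deviation and length had a Spearman coefficient of 0.16 and 0.13 in Malt1_PD, -0.42 and 0.44 in Malt1_WT, and -0.56 and 0.52 in Vector. Vector replicate 1 and Malt1_WT replicate 1 were thus low on long genes and the other libraries of these groups high. With the length trend removed, the fatty acid medians were 0.12 and 0.06 in Malt1_PD and -0.04 and 0.02 in Malt1_WT. In Vector they were -0.14 and 0.02, beside -0.20 and 0.11 before removal.

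**Figure D4:**
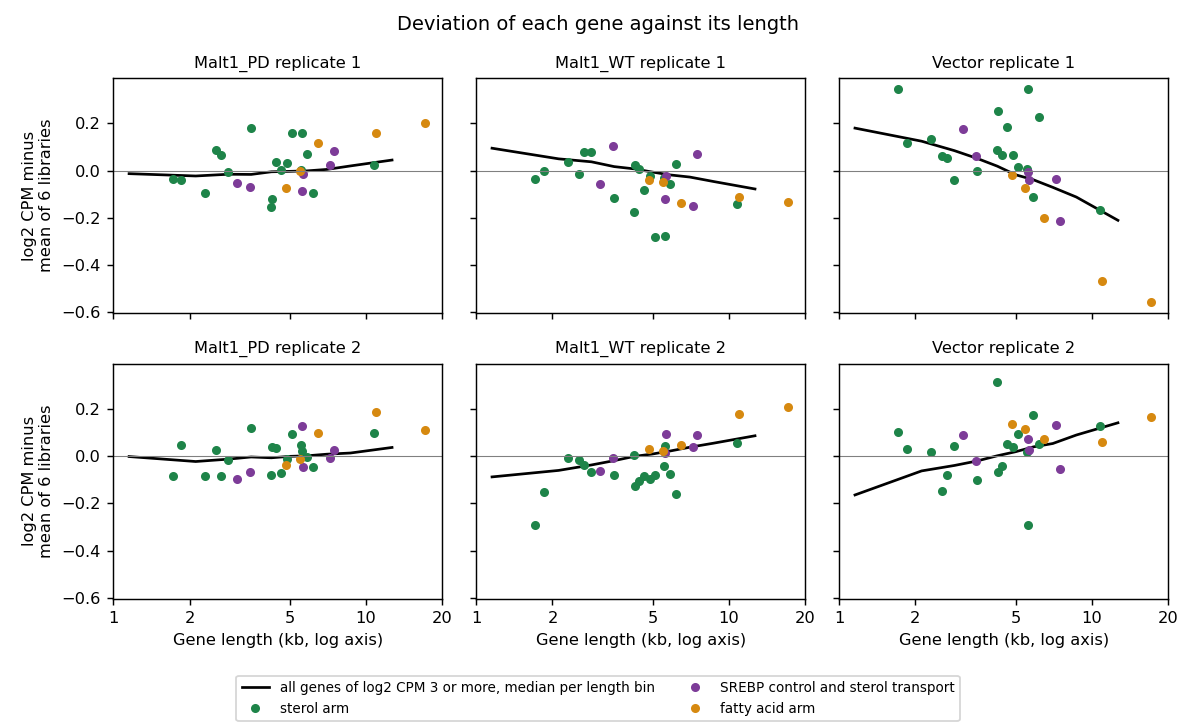
Deviation of each of the 29 genes from its mean over 6 libraries (log2 CPM) against gene length (kilobases, log axis), by library; the line joins the medians of all genes in bins of length. In Vector replicate 1 and Malt1_WT replicate 1 the line falls with length, in the other replicate of each it climbs, and Fasn and Acaca, the 2 rightmost orange points, lie at -0.47 and -0.56 in Vector replicate 1.

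Fasn and Acaca deviated further from 0 than the median of genes of their length in 5 libraries and less far in Vector replicate 2. The spread of those genes around their median was not measured, so Fasn and Acaca are not shown to stand out among them. In Vector replicate 1, Fasn deviated by -0.47, against a median of -0.15 over 320 genes of similar length, and Acaca by -0.56, against -0.32 over 102 genes. In Vector replicate 2, Fasn deviated by 0.06, against 0.11, and Acaca by 0.17, against 0.19. In Malt1_PD, Fasn deviated by 0.16 and 0.19, against 0.03 and 0.02 for its length. Pmvk, a short gene of 1713 bases, deviated by 0.34 and 0.10 in Vector, against 0.15 and -0.08 over 260 genes of its length. In Malt1_WT, Pmvk deviated by -0.03 and -0.29, against 0.05 and -0.07. With the length trend removed in the fit, Fasn differed by 0.31 in Malt1_PD over Vector (edgeR adjusted p = 0.150) and Acaca by 0.23 (edgeR adjusted p = 0.334). With Vector replicate 1 and Malt1_WT replicate 1 both left out, the spread came from the Malt1_PD pair alone (1 residual degree of freedom). The calls of that fit are therefore not read as results. Log2 fold changes in Malt1_PD over Vector were then 0.11 for Fasn, -0.12 for Srebf2, -0.19 for Scd1 and -0.12 for Scd2. In Malt1_WT over Vector they were 0.12 for Fasn, -0.39 for Pmvk, -0.21 for Msmo1, -0.25 for Dhcr7 and -0.09 for Scd2. The part of the length trend in these values was not tested beyond that.

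Other genes of lipid metabolism were read from 5 lists, of which 51 of 53 genes were tested, and none passed an adjusted p of 0.05 in any comparison; Mylip and Mlxipl, with at most 3 counts in a library, were not tested. Among 9 further sterol and SREBP2 target genes, 1 was lower at an unadjusted p under 0.05 in Malt1_PD over Vector, beside 4.88% of all genes. It was Ggps1, the geranylgeranyl diphosphate synthase, with 30.6 and 35.2 CPM in Malt1_PD, 34.9 and 33.7 in Malt1_WT, and 39.5 and 40.2 in Vector. The 4 Malt1 libraries lay below both Vector libraries, at a log2 fold change of -0.28 ± 0.10 (edgeR adjusted p = 0.535). Aacs, which makes acetoacetyl-CoA, was the gene of smallest p in Malt1_PD over Malt1_WT, at 0.13 ± 0.08.

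Abcg1, a sterol exporter and known LXR target, was the 1 of 8 tested LXR, export and storage genes with an unadjusted p under 0.05 in Malt1_PD over Vector. It was higher, beside 3.73% of all genes. It had 105 and 108 CPM in Malt1_PD, 113 and 119 in Malt1_WT, and 86.5 and 91.9 in Vector. Both Malt1 populations lay above Vector and Malt1_WT above Malt1_PD, with log2 fold changes over Vector of 0.26 ± 0.08 for Malt1_PD and 0.38 ± 0.08 for Malt1_WT (edgeR adjusted p = 0.478 and 0.315). Soat1, which esterifies cholesterol, had 42.0 and 40.3 CPM in Malt1_PD, 41.9 and 37.7 in Malt1_WT, and 46.4 and 45.8 in Vector, below Vector in every Malt1 library. None of the 8 genes of SREBP processing and sterol-regulated degradation had an unadjusted p under 0.05, and Rnf145, a ubiquitin ligase of this group, stood at 0.15 ± 0.08 in Malt1_PD over Vector.

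Of 17 further fatty acid synthesis genes, 1 had an unadjusted p under 0.05 in Malt1_PD over Vector, as had 1 of 9 acyl-CoA and glycerolipid genes. These were Acss2 and Acsl4, both lower, beside 4.88% of all genes. Counts this small in the further lists cannot be told apart from the shares over all genes. Acss2, the cytosolic acetyl-CoA synthetase, had 18.2 and 21.9 CPM in Malt1_PD, 21.6 and 18.4 in Malt1_WT, and 28.4 and 26.7 in Vector. The Malt1 libraries lay below Vector, at -0.46 ± 0.13 for Malt1_PD and -0.46 ± 0.13 for Malt1_WT (edgeR adjusted p = 0.422 and 0.497). Acly, the other source of cytosolic acetyl-CoA, averaged 232 ± 4.1 CPM in Malt1_PD, 214 ± 14 in Malt1_WT and 231 ± 25 in Vector (SD, n = 2 each). Acsl4, which activates polyunsaturated fatty acids, was at -0.23 ± 0.09 in Malt1_PD and -0.22 ± 0.09 in Malt1_WT over Vector (edgeR adjusted p = 0.548 and 0.675).

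**Figure D5:**
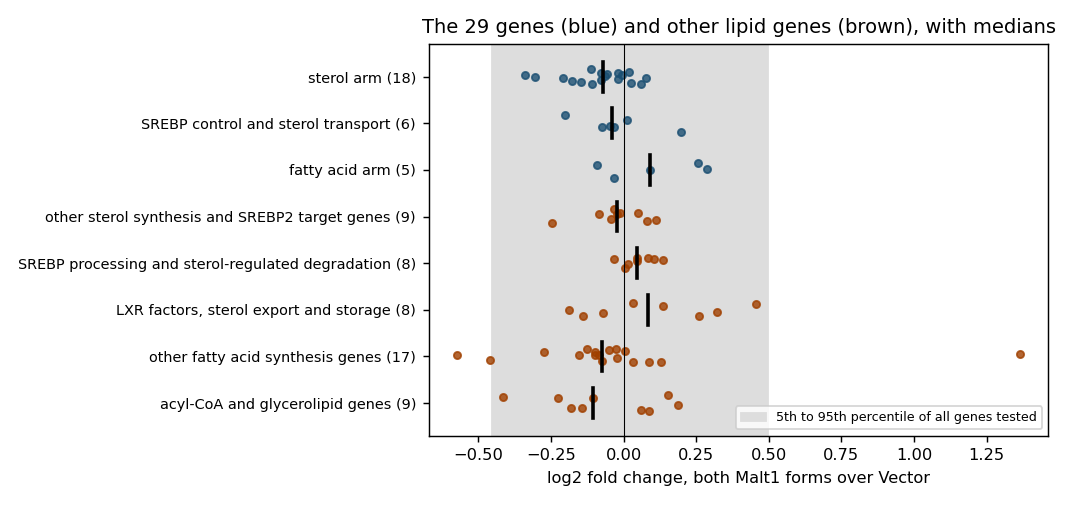
Log2 fold change of both Malt1 forms pooled over Vector for the 29 genes by role (blue) and for the genes of 5 further lipid lists (brown), with the median of each group as a bar. The medians lie between -0.11 and 0.09, and the grey band runs from -0.45 to 0.50, the 5th to 95th percentile of all genes tested.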

How the data were processed

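The authors deposited 1 table for the series with whole-number counts per gene in 6 columns, not normalised, beside a gene length and 6 further columns of log2 RPKM that were not used here. Per the submitters' processing notes, reads were handled with STAR 2.7.3a, Trim Galore 0.6.0 and featureCounts 1.6.3 on GRCm38.p6; no header or label gives the strand setting or annotation release. Of 28063 gene identifiers, 28056 matched GENCODE M21 without their version.

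Counts were tested with edgeR 4.0.16 in R 4.3.3 (filterByExpr by group, TMM factors, glmQLFit and glmQLFTest, 1 coefficient per group, no covariate, the 6 libraries fitted together), with Benjamini-Hochberg adjustment over 14675 genes and a threshold of 0.05. SEs and 95% intervals come from the quasi-likelihood F statistic. CPM use TMM factors. At these depths 3 counts, taken as the floor, equal 0.150 to 0.214 CPM, and this covers counting error only. The scripts were tested on simulated data. Near-identical transcripts were searched with blastn (at least 95% identity over 300 bases).

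Alternatives were no low-count filter, size factors from DESeq2 1.42.0, its Wald test, fits of only the groups compared, a replicate block, removal of the length trend (loess, span 0.3), and leaving out libraries. All 29 genes are named; values per library are given for the highest genes of each arm, for up to 4 genes of smallest p per comparison and for the SREBP, INSIG, Scap, Fasn and Scd genes, and up to 3 genes of smallest p per further list. The genes, lists and the pair of libraries low on long genes were chosen with earlier results of these data known. 1 gene of a further list is not reported here and was left out of that list's counts and median.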

Additional observations from a re-analysis of the deposited data

How the results depend on the processing

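None of the 29 genes was called in any comparison with DESeq2 size factors, DESeq2, the groups compared alone, the replicate block or the length trend removed. The exceptions were 1 gene (Fasn) in Malt1_PD over Vector and 1 (Fasn) in both forms over Vector without a low-count filter, and 4, 5 and 6 genes in Malt1_PD, Malt1_WT and both forms over Vector with Vector replicate 1 and Malt1_WT replicate 1 left out together. In that last setting the fatty acid median of Malt1_PD over Vector was -0.00701, in place of 0.17, and with only 1 residual degree of freedom 2080, 936 and 1754 genes were called in those comparisons and 358 in Malt1_PD over Malt1_WT.

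Over all genes, 1, 1, 1 and 4 were called in Malt1_PD over Vector, Malt1_WT over Vector, Malt1_PD over Malt1_WT and both forms over Vector. Without a filter these were 188, 113, 12 and 255. DESeq2 called 43, 31 and 80 in the comparisons with Vector, and removal of the length trend gave 90, 53 and 191. With the replicate number as a block they were 9, 6 and 52. The numbers are shared by only 2 libraries a group and the labels give them no further meaning. The log2 CPM of replicate 2 minus that of replicate 1 was taken in each group and correlated between groups over 9573 genes. The correlation was 0.68 between Malt1_WT and Vector, 0.03 between Malt1_PD and Malt1_WT, and -0.01 between Malt1_PD and Vector. The cause of these differences was not tested.

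With 1 library left out, in a fit where the lone library of a group is assumed to vary like the other groups, the called genes ran from 0 to 928 in Malt1_PD over Vector, 1 to 599 in Malt1_WT over Vector and 1 to 1202 in both forms over Vector, the highest without Vector replicate 2. Of the 29 genes, 0 to 2, 0 to 3 and 0 to 3 were called in these comparisons. The fatty acid median ran from -0.00934 to 0.316, -0.115 to 0.167 and -0.0623 to 0.242, the sterol median from -0.0534 to -0.00617, -0.119 to -0.0737 and -0.0911 to -0.0479, and the control median from -0.0586 to 0.0269, -0.0831 to -0.0114 and -0.0545 to 0.00844. The sterol minus fatty acid value ran from -0.364 to -0.0169, -0.286 to 0.0605 and -0.325 to 0.0218. In Malt1_PD over Malt1_WT the sterol median ran from 0.0419 to 0.0795, the fatty acid median from -0.0293 to 0.246 and the sterol minus fatty acid value from -0.182 to 0.0270, the last 2 changing sign without Malt1_WT replicate 1.

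The fit of the groups compared was not run for both forms over Vector, which uses all 6 libraries. Between 0 and 9 of the 29 genes changed sign under a setting, none of them called. With 2 libraries a group, a difference of any size inside the printed intervals remains possible.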
